A study of Mus musculus with 2 samples.

Results

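Genes that present, activate and transmit transforming growth factor beta (TGF-β) were followed in mouse regulatory T cells (Treg cells). They were chosen by symbol and number 10 of the 24081 genes in the count table: Lrrc32, Tgfb1, Itgb8, Itgav, Tgfbr1, Tgfbr2, Smad2, Smad3, Smad4 and Smad7. The study's question is the part that SUMOylation, by which cells couple the small protein SUMO to their other proteins, plays in Treg cells. It compared 2 RNA-seq libraries, labelled WT and KO, of CD4+ YFP+ Treg cells from lymph nodes and spleen of 5-week-old C57BL/6 mice. Both groups carried the Foxp3cre/wt allele, in which the Treg gene Foxp3 drives Cre recombinase, with YFP marking the cells that use it. WT mice had 1 floxed allele of the targeted SUMO pathway gene, so Cre can remove a copy in the control too, and KO mice had 2. Foxp3 lies on the X chromosome, so mice heterozygous for the Cre allele also hold Treg cells that use the other allele, which the YFP gate leaves out. A library pools the cells of 5 to 10 mice. Titles and the design text give the groups, because both samples carry a wild-type genotype label.

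TGF-β is made as a latent complex in which its own propeptide holds the growth factor. On Treg cells the surface protein GARP, encoded by Lrrc32, tethers this complex, and the integrin formed by the αv chain (Itgav) and the β8 chain (Itgb8) pulls on the propeptide to free the factor. The freed factor binds the receptor pair encoded by Tgfbr1 and Tgfbr2, which phosphorylates the receptor SMADs (Smad2 and Smad3); these join Smad4 and enter the nucleus, and Smad7 is a feedback inhibitor that blocks the receptor. In Treg cells TGF-β is known for supporting Foxp3 expression and the tissue-homing integrin chain encoded by Itgae.

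With 1 library per group no test between conditions was possible, and no difference has a replicate check. Fold differences are ratios of read counts scaled to a common library size. The interval in parentheses is an exact 95% interval for counting error only, without the spread between mice. Genes with a mean of at least 20 reads over both libraries were called measured, and calls of higher or lower were made from 1.5-fold upward on a log2 scale with a pseudocount of 1. In bulk RNA, fewer cells of a type and less RNA per cell cannot be told apart.

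RNA for the docking protein of latent TGF-β and RNA for the β8 chain of the activating integrin differed in opposite directions. The KO library held more RNA of Lrrc32 (2.36-fold, 2.25 to 2.47) and less of Itgb8 (2.36-fold lower, 1.83 to 3.06). Smad7 was 1.61-fold higher (1.501 to 1.73). The other 7 genes, among them both receptor genes and Smad2, Smad3 and Smad4, lay within 1.5-fold. Thus 2 of the 10 genes were called higher and 1 lower. Over all 10899 measured genes 7.43% were called higher and 5.51% lower, 12.9% in all; of these calls 57.45% were higher, compared with 45.1% when gene-read totals were used for scaling (623 higher and 758 lower). At 2-fold or more, Lrrc32 was higher and Itgb8 lower, as were 1.59% and 2.08% of all measured genes, 3.67% in all. The median log2 ratio of the 10 genes was -0.02, against 0.01 for all measured genes.

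Transcripts rich in G and C tended to higher ratios in these libraries, so composition is given with many of the results. Results given without it are not free of this trend. Across all genes with a known transcript the median log2 ratio was -0.19 in the lowest decile of GC content and 0.37 in the highest. The following 120-base coding stretches of Lrrc32, Itgb8 and the ligand gene Tgfb1 are examples of composition and do not stand for the whole genes. Each is the middle of the longest coding exon in GENCODE M21 on GRCm38 (mm10), given 5′ to 3′ on the gene's strand, with G and C in capitals. The Lrrc32 stretch is chr7:98498993-98499112 on the plus strand and has 57.5% GC. The Tgfb1 stretch is chr7:25687987-25688106 on the plus strand and has 66.7% GC. The Itgb8 stretch is chr12:119170789-119170908 on the minus strand and has 50.8% GC.
Lrrc32: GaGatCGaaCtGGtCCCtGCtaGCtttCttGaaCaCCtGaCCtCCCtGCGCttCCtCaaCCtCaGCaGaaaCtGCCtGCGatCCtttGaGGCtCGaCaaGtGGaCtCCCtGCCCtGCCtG
Tgfb1: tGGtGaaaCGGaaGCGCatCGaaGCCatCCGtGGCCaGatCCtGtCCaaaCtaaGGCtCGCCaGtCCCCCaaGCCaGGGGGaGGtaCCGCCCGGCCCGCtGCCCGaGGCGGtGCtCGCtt
Itgb8: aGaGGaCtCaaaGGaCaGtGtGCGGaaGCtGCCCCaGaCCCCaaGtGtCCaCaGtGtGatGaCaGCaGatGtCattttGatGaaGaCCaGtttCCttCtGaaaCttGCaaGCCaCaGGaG
Over the whole transcript the gap between Lrrc32 (58.3% GC) and Itgb8 (40.4%) was wider than between their stretches. The coding part of Itgb8 had 45.6% GC and its noncoding part, which makes up most of the transcript, 38.5%. Unlike their stretches, the whole coding parts of Lrrc32 (59.4%) and Tgfb1 (58.5%) were close. The noncoding part of Tgfb1 had 67.3%.

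Lrrc32 (ENSMUSG00000090958.2, chromosome 7, 98489283 to 98502181, plus strand, 4 exon blocks) encodes GARP, the docking receptor for latent TGF-β on Treg cells. Its reads numbered 2072 in WT and 9443 in KO, or 178 and 397 per 1000000 gene reads (CPM). CPM values use gene-read totals without the scaling behind the folds, so their quotients differ somewhat from the folds. The log2 ratio of Lrrc32, 1.24, was the 77th highest of the 10899 measured genes. Of the 1235 genes with a mean read count within 2-fold of its own, none had a higher ratio. Lrrc32 is rich in GC, and the 715 measured genes within 1 percentage point of its GC content had a median log2 ratio of 0.32; 98.3% of them lay below Lrrc32. Once a smooth trend on GC content and transcript length was removed, a step called the GC correction below, Lrrc32 was at 0.93, under 2-fold and still above 1.5-fold.

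Among 3779 other genes with a mean of at least 1000 reads, those with the log2 ratio nearest to that of Lrrc32 were Nckap5l, Rpl36, Rpl39 and Rpl35a, at 1.27, 1.19, 1.34 and 1.12. The last 3 encode ribosomal proteins and have near-identical pseudogene copies, so their counts are uncertain. The GC correction, which also removes a trend on transcript length, took Rpl36 to 0.33, under 1.5-fold. It lowered Nckap5l to 0.79, Rpl39 to 1.11 and Rpl35a to 0.84, which stayed above 1.5-fold. This likeness is a single ratio between 2 libraries.

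Platelets and endothelial cells are other known sources of GARP. The defining platelet genes Gp9, Gp1bb and Gp6 had no reads in either library, and Pf4 had 3 in WT and 0 in KO. Of the 10 platelet markers only Gp1ba (18 and 46 reads) and the integrin chain Itgb3 were measured. The sum of all 10 was 192 CPM in WT and 224 in KO, nearly all of it Itgb3. Among 9 stromal and endothelial markers, Cdh5 had 22 and 36 reads, Kdr 5 and 21, Vwf 23 and 17, and Pdpn none. The adhesion gene Pecam1, which T cells also carry, made up most of the sum of 309 and 320 CPM. The part of platelets and endothelial cells in the Lrrc32 values was not tested. All 7 Treg markers were measured: Foxp3 had 732 and 1285 CPM and Cd4 1991 and 2286, while Ctla4 (147 and 86.4 CPM) and Ikzf2 (331 and 198 CPM) were lower in KO, with log2 ratios of -0.69 and -0.66.

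Tgfb1 (ENSMUSG00000002603.15, chromosome 7, 25687002 to 25705077, plus strand) encodes the TGF-β form that Treg cells make. It had 4793 reads in WT and 11818 in KO and was 1.28-fold higher in KO (1.23 to 1.32), under the 1.5-fold call. Its transcript is the richest in GC of the 10, at 62.5%. The 118 measured genes of like GC content had a median log2 ratio of 0.47, above the 0.35 of Tgfb1, and after the GC correction Tgfb1 was at -0.050. Its direction was thus not kept under that correction.

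The balance of RNA for the docking protein and for its cargo can be read inside each library, which needs no scaling between them. Protein was not measured. There were 0.432 reads of Lrrc32 for each read of Tgfb1 in WT and 0.799 in KO, a 1.85-fold difference (1.74 to 1.96). Per kilobase of exon the quotient was 0.465 in WT and 0.859 in KO, and per kilobase of the longest coding transcript it was 0.205 and 0.380, so the level of Lrrc32 relative to Tgfb1 depends on the length used for Tgfb1. Both transcripts are rich in GC.

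**Figure D1:**
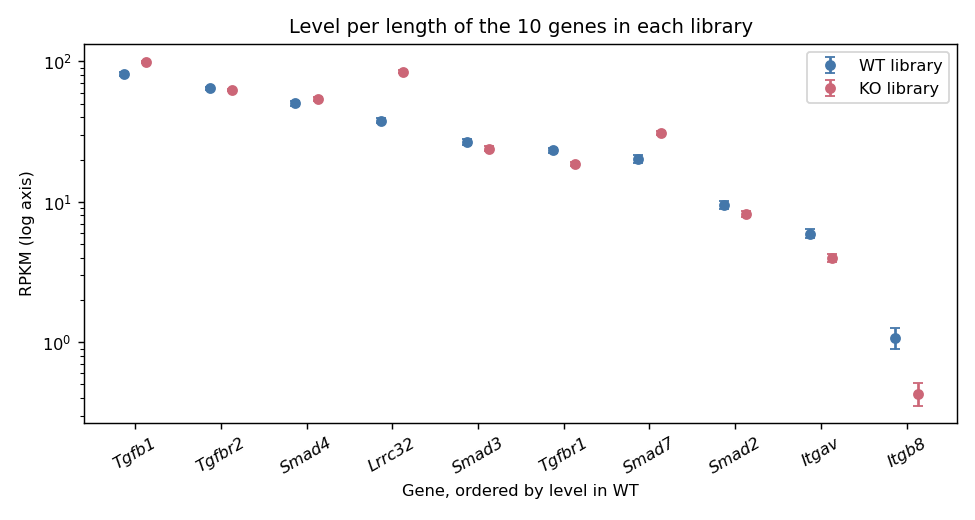
Level of each of the 10 genes in reads per kilobase of exon and per 1000000 gene reads (RPKM, log axis), 1 point per library, with exact 95% counting intervals as bars; genes are ordered by their level in WT. Lrrc32 stands at 37.9 in WT and 84.7 in KO, and Itgb8 is the lowest gene in both libraries.

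Itgb8 (ENSMUSG00000025321.14, chromosome 12, 119158022 to 119238802, minus strand) encodes the β8 chain, which pairs only with αv. It had 138 reads in WT and 113 in KO, although the KO library held more gene reads in all, and thus 11.8 and 4.75 CPM. Its log2 ratio of -1.23 was the 154th lowest of the 10899. Genes of like GC content had a median of -0.18, and 1.49% of those 537 genes lay below Itgb8. The GC correction left it at -1.11, still more than 2-fold lower. Its interval is the widest of the 10 because its reads are few.

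Itgav (ENSMUSG00000027087.11, chromosome 2, 83724397 to 83806916, plus strand) encodes the αv chain, which serves several integrins. It had 741 reads in WT and 1013 in KO and was 1.41-fold lower in KO (1.28 to 1.56), under the call threshold, with a log2 ratio of -0.50 as scaled and -0.42 with the GC correction. Exons of Gm13684 on the opposite strand overlap 5.9% of its exon bases. Both chains of the activating integrin thus had less RNA in KO, the β8 chain more so. Inside each library there were 0.186 reads of Itgb8 per read of Itgav in WT and 0.112 in KO, a 1.67-fold difference (1.27 to 2.20). The quotient of Lrrc32 to Itgb8 went from 15.0 reads per read in WT to 83.6 in KO (5.57-fold, 4.29 to 7.23). Lrrc32 has 58.3% GC and Itgb8 40.4%, and this quotient has no GC correction. That correction brought both log2 ratios nearer to equal, Lrrc32 from 1.24 to 0.93 and Itgb8 from -1.23 to -1.11.

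Dendritic cells and macrophages also express αvβ8. The 7 dendritic cell markers summed to 23.6 CPM in WT and 27.3 in KO; single ones differed both ways, with log2 ratios of 0.54 for Itgax and -0.48 for Cd209a. The 6 monocyte and macrophage markers in the table were all measured and summed to 478 and 425 CPM, led by Csf1r with 274 and 229. Summed markers of B cells (123 and 93.4 CPM), NK cells (2.92 and 1.13) and erythroid cells (14.7 and 5.42) were also lower in KO. The part of these other cell types in the Itgb8 and Itgav values was not tested. The CD8 T cell markers Cd8a and Cd8b1 summed to 34.5 and 40.4 CPM. The globin genes Hba-a1, Hba-a2, Hbb-bs and Hbb-bt are listed at 0 in both libraries.

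The other β chains that pair with αv are named here in full, whatever the rule for named genes takes. Itgb3 was 1.23-fold higher (1.17 to 1.30) and no difference in Itgb5 was detectable at this depth (1.04-fold, 0.886 to 1.22). Itgb6 had no reads. Itgb1, which pairs with many α chains besides αv, was 3.12-fold lower (2.98 to 3.26).

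The receptor genes differed little. Tgfbr1 (ENSMUSG00000007613.15, chromosome 4, 47353222 to 47414931, plus strand), the kinase that phosphorylates SMADs, had 1768 reads in WT and 2888 in KO and was 1.18-fold lower (1.12 to 1.26). Tgfbr2 (ENSMUSG00000032440.13, chromosome 9, 116084293 to 116175360, minus strand), which binds the ligand first, had 6123 and 12159 reads, a difference not detectable at this depth (1.03-fold, 0.996 to 1.06). The Tgfbr1 ratio was near the median of -0.18 for genes of its GC content, and the GC correction took it from -0.24 to -0.10. Reads of Tgfbr1 per read of Tgfbr2 were 0.289 in WT and 0.238 in KO, 1.22-fold lower (1.14 to 1.30).

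The signal-carrying SMADs lay close to equal. Smad2 (ENSMUSG00000024563.16, chromosome 18) had 971 reads in WT and 1710 in KO and was 1.10-fold lower (1.01 to 1.19). Smad3 (ENSMUSG00000032402.12, chromosome 9, 63646767 to 63757994, minus strand) had 1726 and 3159 and did not differ detectably (1.06-fold lower, 0.996 to 1.12). The common partner Smad4 (ENSMUSG00000024515.13, chromosome 18) had 2181 and 4783 reads and was 1.13-fold higher (1.08 to 1.19). There were 1.78 reads of Smad3 per read of Smad2 in WT and 1.85 in KO, a quotient whose interval includes no difference (1.04-fold, 0.941 to 1.15).

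Smad7 (ENSMUSG00000025880.11, chromosome 18), the inhibitory SMAD that TGF-β itself induces, was the SMAD that passed 1.5-fold. It had 1063 reads in WT and 3307 in KO, or 91.1 and 139 CPM, and a log2 ratio of 0.69. Its transcript is rich in GC (56.9%); the 914 genes of like GC content had a median of 0.24, and 89.8% of them lay below Smad7. With the GC correction it was at 0.46, under 1.5-fold. Against the receptor SMADs in the same library there were 0.616 reads of Smad7 per read of Smad3 in WT and 1.05 in KO (1.70-fold, 1.55 to 1.86), and 1.09 and 1.93 per read of Smad2. Smad3 (53.1%) and Smad2 (44.9%) have lower GC content than Smad7.

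**Figure D2:**
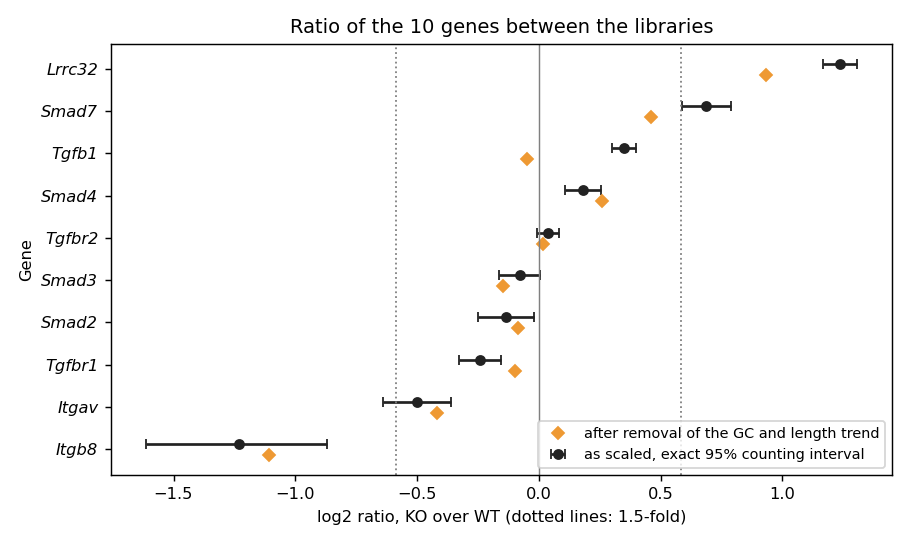
Log2 ratio of KO over WT for each of the 10 genes, as scaled with exact 95% counting intervals (circles) and after the GC correction (diamonds); dotted lines mark 1.5-fold. Lrrc32 and Itgb8 lie outside the lines in both versions, Smad7 only as scaled (0.69 and 0.46).

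The counting interval left out a ratio of 1 for 8 of the 10 genes, 5 of them within 1.5-fold. The same count was not made over all measured genes, so it does not set these 10 apart. The order of the ratios among the 10 genes followed their GC content, with a Spearman correlation of 0.90 over 10 genes that share the same 2 libraries; over all genes with a known transcript it was 0.43. Lrrc32 lay above the 5th to 95th percentile of genes of like GC content (-0.38 to 0.93) and Itgb8 below its own (-0.59 to 0.26), and the other 8 genes lay inside theirs.

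**Figure D3:**
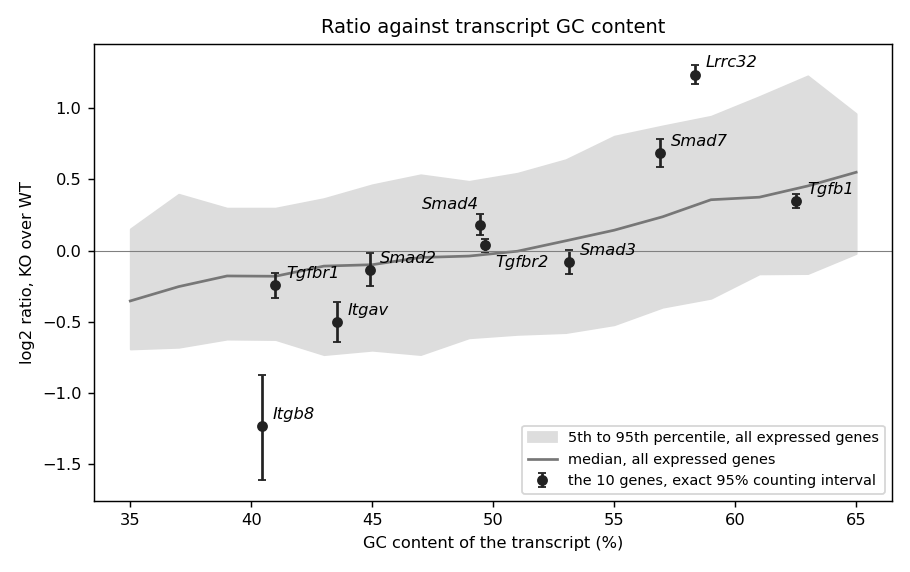
Log2 ratio of KO over WT against transcript GC content in percent for the 10 genes (points, with exact 95% counting intervals), over the median (line) and the 5th to 95th percentile (band) of all measured genes in steps of 2 percentage points. Lrrc32 at 1.24 is above the band and Itgb8 at -1.23 below it.

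Levels between genes were compared per kilobase of exon, in RPKM. Like CPM, RPKM uses gene-read totals without the scaling behind the folds. In WT the order was Tgfb1 (81.5 RPKM), Tgfbr2 (64.1), Smad4 (50.4), Lrrc32 (37.9), Smad3 (26.7), Tgfbr1 (23.2), Smad7 (20.2), Smad2 (9.48), Itgav (5.91) and Itgb8 (1.07). In KO, Lrrc32 was the second highest (84.7) behind Tgfb1 (98.5), and Smad7 (30.7) stood above Smad3 (24.0) and Tgfbr1 (18.6). Neighbours in each order did not overlap in their counting intervals; the spread between mice is unknown. The order was the same with the length of the longest coding transcript in place of all exons, although that length puts Tgfb1 at 189 in WT and 228 in KO.

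The wider pathway was read from 8 lists holding 93 genes, of which 75 were measured. Of these, 11 were called higher and 7 lower, where 7.43% and 5.51% of all measured genes were, and the median log2 ratio was 0.05. From each list the 4 genes with the largest absolute log2 ratio are named. With gene-read totals for scaling, 9 were higher and 9 lower. Of the 7 genes called lower, 6 came from the lists of TGF-β target genes and the other was the integrin chain Itgb1.

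Among genes that handle latent TGF-β, 8 of 14 were measured, with 1 called higher, 1 lower and 6 between. The lower gene was Itgb1. The higher one, Ltbp1, which binds the latent complex to the matrix, had only 12 and 37 reads and an interval that includes no difference (1.59-fold, 0.813 to 3.36). It fell short of 1.5-fold with the GC correction (log2 ratio 0.56), with gene-read totals (0.57) and with a pseudocount of 5 (0.55). Furin, the protease that cuts the TGF-β precursor, had 782 and 2178 reads (1.44-fold higher, 1.33 to 1.57), and 0.23 on the log2 scale with the GC correction. Nrros, a docking protein for latent TGF-β related to GARP, had 1257 and 3039 (1.25-fold higher, 1.17 to 1.34), a smaller difference than that of Lrrc32.

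Receptors of the wider TGF-β superfamily were 9 measured of 11, and none was called. The co-receptor Eng had 34 and 98 reads (1.49-fold higher, 1.00 to 2.27) and the kinase Acvrl1 279 and 793 (1.47-fold higher, 1.28 to 1.69). The activin receptor Acvr2a had 103 and 135 reads and the BMP receptor Bmpr2 641 and 872, 1.48-fold (1.13 to 1.92) and 1.42-fold (1.28 to 1.58) lower. Acvr2a passed 1.5-fold when gene-read totals alone were used for scaling (log2 ratio -0.63), and 7.84% of its exon bases overlap Orc4 on the opposite strand. The SMADs of the BMP branch, Smad1 (282 and 657 reads) and Smad5 (591 and 1295), were 1.20-fold and 1.13-fold higher. The other inhibitory SMAD, Smad6, had 2 reads in WT and 0 in KO, so Smad7 carried nearly all the RNA of that class.

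Of the SMAD pathway brakes 18 of 19 were measured, 2 were called higher and none lower, and the median was -0.03. Nedd4l, a ubiquitin ligase for activated SMADs, had 431 and 1344 reads (1.61-fold higher, 1.45 to 1.80) and 0.72 on the log2 scale with the GC correction. The decoy receptor gene Bambi was 1.72-fold higher on few reads (21 and 70, interval 1.05 to 2.96). Ski, a corepressor of SMAD complexes, had 5178 and 14338 reads (1.43-fold higher, 1.39 to 1.48). Its log2 ratio was 0.52 as scaled and 0.32 with the GC correction. Ldlrad4, a SMAD sequestering protein that TGF-β induces, was 1.26-fold lower (1.13 to 1.40); 52.1% of its exon bases overlap Fam210a on the opposite strand, and no source used here says if reads were counted by strand.

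Of the helpers and coactivators 12 of 14 were measured, with 2 higher and none lower. These were the paired histone acetyltransferase genes that SMAD complexes recruit. Crebbp had 1751 reads in WT and 6353 in KO (1.88-fold, 1.78 to 1.98), and its log2 ratio stayed at 0.84 with the GC correction. Ep300 had 3949 and 11548 (1.51-fold, 1.46 to 1.57) and fell short of 1.5-fold with the GC correction (0.54) and with gene-read totals (0.52). Runx3, a partner of SMADs in T cells, was 1.30-fold higher and the endosomal adaptor Hgs 1.29-fold. The log2 ratio of Runx3 was 0.21 with the GC correction, which could not be made for Hgs. All 8 genes of the TAK1 and non-SMAD branch were measured. Traf4 was called higher (505 and 1596 reads, 1.63-fold, 1.48 to 1.81), but was at 0.42 with the GC correction. Traf6 and Tab1 were 1.19-fold higher and Xiap 1.18-fold lower. With the GC correction their log2 ratios were 0.32 for Traf6, -0.009 for Tab1 and -0.07 for Xiap.

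Genes that TGF-β is known to raise differed both ways. Of 16 genes 13 were measured, 2 of them higher and 2 lower, and the median was -0.22. Itgae, which encodes the αE chain (CD103) and is a known TGF-β target in T cells, had 538 reads in WT and 230 in KO (4.52-fold lower, 3.87 to 5.30). Gpr15, a colon-homing receptor, had 68 and 9 (14.6-fold lower, 7.26 to 33.3). Foxp3 had 8540 and 30579 reads (1.85-fold higher, 1.81 to 1.90) and the AP-1 gene Junb 4618 and 14456 (1.62-fold higher, 1.57 to 1.67), the latter at 0.31 on the log2 scale with the GC correction. Exons of Foxp3 overlap Flicr on the same strand (18.6% of its exon bases) and Ccdc22 on the other (12.9%), and those of Gpr15 overlap Cpox (12.5%). The SMAD feedback genes Skil and Pmepa1, picked after their values were seen, showed no difference detectable at this depth: Skil had 2347 and 4440 reads (1.02-fold lower, 0.972 to 1.07) and Pmepa1 480 and 910 (1.02-fold lower, 0.911 to 1.14). Smad7, another gene of that feedback, was called higher as scaled, but the GC correction (0.46) removed that call. The contrast with Skil and Pmepa1 does not stand for the whole list. In it Ldlrad4 (1.26-fold, 1.13 to 1.40) and Klf10 (1.27-fold, 1.10 to 1.47) were lower. Of the 13 measured genes, 4 had a log2 ratio above 0 and 9 below.

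Genes that TGF-β is known to lower were split as well. Of 10 genes 8 were measured, 3 of them higher and 4 lower, and the median was -0.43. The cytotoxic protease gene Gzmb had 73 and 24 reads (5.88-fold lower, 3.66 to 9.76), Klrg1 40 and 17 (4.55-fold lower, 2.52 to 8.56), Ifng 31 and 18 (3.33-fold lower, 1.81 to 6.32) and Tbx21, which encodes T-bet, 85 and 83 (1.98-fold lower, 1.45 to 2.71). Those called higher, outside the rule, were Eomes, Myc and Gata3, with log2 ratios of 0.79, 0.79 and 0.67. Itgae, Klrg1 and Gzmb also mark effector Treg cells, so neither list reads TGF-β signalling alone.

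**Figure D4:**
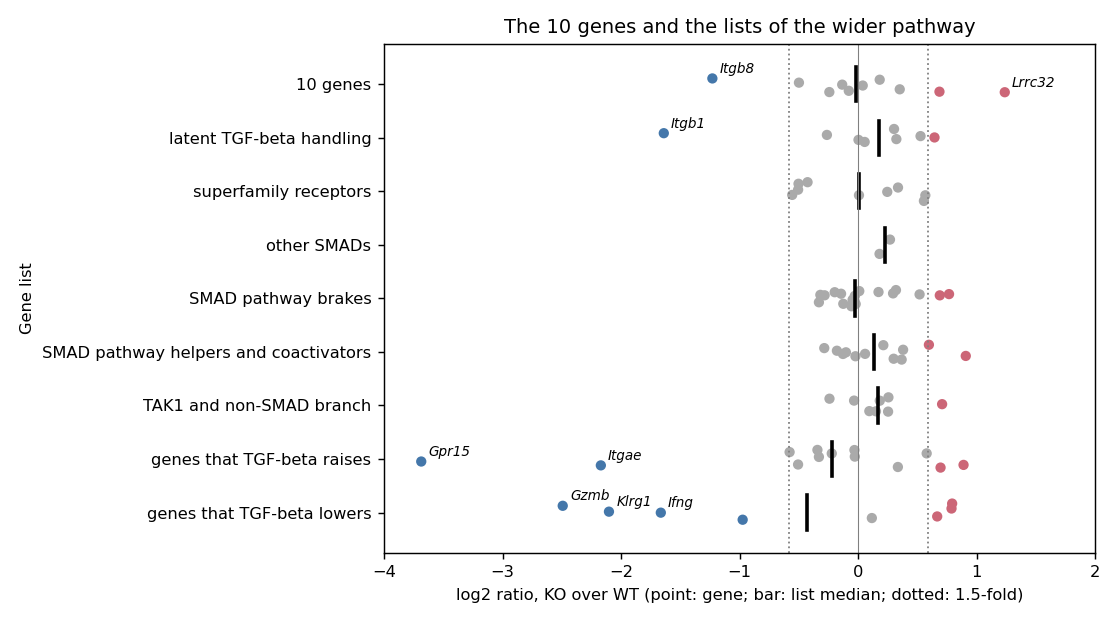
Log2 ratio of KO over WT for the 10 genes and for the measured genes of each list of the wider pathway; each point is a gene, black bars are list medians, red and blue mark genes at least 1.5-fold higher and lower, and vertical scatter within a row carries no value. The target gene lists at the bottom hold the lowest ratios, with Gpr15 at -3.69.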

How the data were processed

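RNA was sequenced from 2 libraries, WT and KO, grouped by title. The authors deposited raw counts of reads per gene, not normalized; the submitters' processing notes name HTSeq, TopHat2 2.0.3 and mm10. No source used here gives the annotation or strand setting. The libraries held 11662867 (WT) and 23789264 (KO) gene reads, 76.6% of entries in each; 15.6% and 15.0% aligned to several places and were not counted to genes. These and the other non-gene rows were left out. The intervals cover counting error only, treat each read as an independent count and take the scaling factors as fixed. The labels mention no molecular identifiers, and reads copied from the same molecule would make the intervals too narrow. The targeted gene is not reported here.

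Counts were scaled with TMM factors of edgeR 4.0.16 (1.03 and 0.974) in R 4.3.3; no model was fitted. Log2 ratios used a pseudocount of 1, folds and exact conditional binomial (Clopper-Pearson) 95% intervals none. Exon lengths, transcript GC content and overlaps came from GENCODE M21 (GRCm38); 95.9% of 10899 measured genes matched by symbol. The GC correction removed a smooth trend of the log2 ratio on transcript GC content and length (mgcv 1.9.3). Alternatives were 3 scalings (DESeq2 1.42.0 size factors among them), pseudocounts, filters, a 2-fold threshold and this correction. The interval and call steps were tested on simulated counts with counting error alone and known library totals. That setting matches the interval's own model and holds no GC trend or spread between mice. It therefore does not check the intervals or calls on the real libraries. Named genes were the 10 genes, 4 per list by absolute ratio, and 4 genes nearest Lrrc32 in ratio. The genes, lists and rules were chosen with earlier results of these data known.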

Additional observations from a re-analysis of the deposited data

How the results depend on the processing

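No paired analysis was possible because each group has 1 library. Over 9 alternatives for the 10 genes, 88 of 90 log2 ratios kept their sign and 81 stayed within the counting interval. The read filters among these alternatives cannot change the ratio of a gene, so their values were fixed in advance. All values outside the interval came from gene-read totals or the GC correction. The exceptions in sign were Tgfb1 with the GC correction (-0.050) and Tgfbr2 with gene-read totals (-0.039), neither called. Gene-read totals also moved Lrrc32 to 1.16, Tgfb1 to 0.27 and Smad4 to 0.10. The GC correction moved Lrrc32 to 0.93, Tgfbr1 to -0.10, Smad4 to 0.26 and Smad7 to 0.46, leaving 1 of the 10 genes called higher, as the 2-fold threshold also did. Itgb8 was called lower under all 10 settings, 2-fold included, and ranged from -1.31 to -1.11. Genes of the lists called higher numbered 11 as reported, 7 with the GC correction and 0 at 2-fold; those called lower numbered 7, 2 with a mean of at least 100 reads and 13 with no filter. Over all genes, 810 higher and 600 lower became 509 and 309 with a mean of at least 100 reads, 2617 and 1867 with no filter, 173 and 227 at 2-fold, 515 and 530 with the GC correction, and 623 and 758 with gene-read totals, so the excess of higher calls was not kept under the last 3. Removing the filter adds genes with few reads. The cause of the other changes was not tested. The few reads of Itgb8 limit its precision, and the spread between mice was not measured for any gene.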
